A study of Mus musculus with 4 samples.

Results

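The 7 genes Hmgcs1, Sqle, Srebf2, Insig1, Fdft1, Lss and Cyp51 of the cholesterol synthesis pathway were followed by name through single-nucleus RNA counts of mouse liver. All 7 symbols were found once each among the 32285 genes of every count matrix. The livers came from male wild type C57BL6/J mice, an inbred laboratory strain. There were 2 libraries from young mice aged 2 months and 2 from aged mice of 30 months, and no treatment is named for either group. The labels number the libraries as replicates without saying that each came from its own animal, so p-values measure only the spread between these libraries, which may be technical. The gene set is labelled as synthesis and uptake, but none of its members is an uptake receptor, and uptake is covered below by a separate list.

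Liver cells build cholesterol from acetyl-CoA through mevalonate, squalene and lanosterol. Hmgcs1 makes HMG-CoA at the entry of the pathway, Fdft1 (squalene synthase) joins farnesyl units into squalene, Sqle (squalene epoxidase) and Lss (lanosterol synthase) turn squalene into lanosterol, and Cyp51 removes a methyl group from lanosterol. Srebf2 encodes the transcription factor that switches these enzymes on when membrane sterol is low. Insig1 encodes an endoplasmic reticulum protein that holds that factor back when sterol is plentiful, and is itself one of its targets. Hepatocytes, the parenchymal cells of the liver, are arranged between the portal vessels and the central vein and differ in metabolism along that axis.

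Gene positions were taken from the GENCODE vM21 annotation of GRCm38 (mm10), the build named for the counts. Hmgcs1 lies at chr13:119690379-119708260 on the plus strand, Fdft1 at chr14:63145150-63179578 on the minus strand, Sqle at chr15:59315077-59331192 on the plus strand and Lss at chr10:76531588-76557138 on the plus strand. Cyp51 lies at chr5:4081145-4104746 on the minus strand, Srebf2 at chr15:82147181-82205379 on the plus strand and Insig1 at chr5:28071363-28078662 on the plus strand. On the opposite strand, Fdft1 overlaps the protease gene Ctsb, Cyp51 overlaps the scaffold gene Akap9, and Hmgcs1 and Lss overlap the antisense genes Gm48342 and 4930483K19Rik. Whether counting used strand or intronic reads is not given in the sources used here. Whether reads of these opposite-strand partners entered the members' counts was not tested.

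The promoters of 5 of the 7 members were present in the RefSeq promoter table (GRCm38.p6) and are shown because most of the set moved together along the liver zones, as described below. They were searched on both strands over 250 bases before the RefSeq start for 3 motifs: TCACNCCAC, a core of the sterol regulatory element, CCAAT, bound by NF-Y, and GGGCGG, bound by Sp1. Each stretch is printed 5′ to 3′ on the gene's own strand up to the first base that GENCODE places in an exon, in lower case with motif matches on either strand in capitals. They cover chr13:119690101-119690350 (plus strand), chr10:76531355-76531587 (plus strand), chr5:4104747-4104947 (minus strand), chr15:82147019-82147180 (plus strand) and chr5:28071162-28071362 (plus strand).
Hmgcs1: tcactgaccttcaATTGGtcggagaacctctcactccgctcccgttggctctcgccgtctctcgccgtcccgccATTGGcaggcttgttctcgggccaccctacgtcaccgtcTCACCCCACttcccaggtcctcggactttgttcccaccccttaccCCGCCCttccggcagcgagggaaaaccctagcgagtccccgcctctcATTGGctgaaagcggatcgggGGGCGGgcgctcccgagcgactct
Lss: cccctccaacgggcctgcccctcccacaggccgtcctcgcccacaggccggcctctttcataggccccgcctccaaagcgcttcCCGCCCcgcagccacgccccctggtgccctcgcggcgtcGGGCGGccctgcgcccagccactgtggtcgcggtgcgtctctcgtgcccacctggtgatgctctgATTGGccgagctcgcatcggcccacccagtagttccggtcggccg
Cyp51: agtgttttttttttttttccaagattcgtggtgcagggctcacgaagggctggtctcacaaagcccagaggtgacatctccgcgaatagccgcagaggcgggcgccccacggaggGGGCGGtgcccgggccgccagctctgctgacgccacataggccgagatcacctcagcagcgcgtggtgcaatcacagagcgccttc
Srebf2: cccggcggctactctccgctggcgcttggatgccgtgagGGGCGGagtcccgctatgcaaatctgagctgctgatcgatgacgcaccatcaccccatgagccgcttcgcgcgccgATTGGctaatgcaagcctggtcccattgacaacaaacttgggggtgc
Insig1: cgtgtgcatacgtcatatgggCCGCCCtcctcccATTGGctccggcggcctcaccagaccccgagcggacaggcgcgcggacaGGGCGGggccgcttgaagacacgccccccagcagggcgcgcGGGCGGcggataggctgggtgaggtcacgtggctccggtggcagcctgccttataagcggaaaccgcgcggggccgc
The Hmgcs1 stretch holds the sterol element core from 137 to 129 bases before the RefSeq start, and 1.05% of all 32851 promoters of that length hold it. None of the other 4 members has these letters in its 250 bases. CCAAT is present in 5 of 5 members against 33.9% of all promoters, and in Cyp51 it lies at 29 to 25 bases before the start, beyond the printed stretch. GGGCGG is present in 5 of 5 against 32.7%. These matches are descriptions of the letters.

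Of 43013 deposited barcodes, 33262 nuclei were kept, and 24212 of them formed hepatocyte-like clusters (1380 to 8955 a library). The matrices held 11799751 to 54777101 UMIs (unique molecular identifiers, 1 per captured RNA molecule). Hepatocyte-like nuclei had a median of 3605, 927, 2113 and 2997 UMIs in young replicates 1 and 2 and aged replicates 1 and 2, and the order of libraries is the same in every list of 4 values below. Libraries stood apart from one another: almost every hepatocyte-like cluster came from 1 library, and any pair of libraries shared 8 to 67 barcodes. Members and pathway genes were left out of the genes used for the main clustering. They were not left out where a mixed cluster was split again. That split gave the B-like class and part of the unnamed nuclei, which may rest on them, and the other named classes do not.

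In hepatocyte-like nuclei no member passed the test between ages. Levels are given as CPM, the count per 1000000 UMIs of the class in that library. Fold changes are log2 values, aged minus young, from edgeR's quasi-likelihood test of counts summed per library, with Benjamini-Hochberg adjusted p. With edgeR, 0 of 7 members passed an adjusted p of 0.05, beside 0.0392% of the 15316 genes tested. An unadjusted p under 0.05 was reached by 0 of 7, beside 18.5% of all genes tested. DESeq2 called 0 of 7, beside 5.3% of all genes tested. The members' median change was -0.00, beside -0.02 for all genes tested, with 3 members above 0 and 4 below.

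Hmgcs1, at the pathway's entry, stood at 55.5, 119, 91.8 and 71.4 CPM. Both aged libraries lay between the young ones, and the change was -0.02 (SE 0.38, 95% interval -0.90 to 0.86, edgeR adjusted p = 0.983). Fdft1, which makes squalene, stood at 42.4, 59.9, 86.8 and 65.7 CPM. It was the only member whose age groups did not overlap, with means of 51.1 ± 12.4 CPM (young) and 76.3 ± 14.9 CPM (aged; SD, n = 2 each). Its change was 0.63 (SE 0.32, interval -0.11 to 1.37, edgeR adjusted p = 0.335), and both aged libraries lay above both young ones for 23.7% of all genes tested.

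Sqle, the squalene epoxidase, stood at 36.1, 55.5, 44.6 and 38.5 CPM, a change of -0.08 (SE 0.31, interval -0.81 to 0.65). Lss, which closes the sterol ring system, stood at 12.9, 44.4, 31.9 and 19.9 CPM. The young libraries were again the lowest and the highest, and the change of -0.05 had the widest interval of the set (SE 0.52, -1.28 to 1.18). Cyp51 stood at 54.8, 62.4, 69.1 and 44.5 CPM, with both young libraries between the aged ones (-0.00, SE 0.34, interval -0.80 to 0.79).

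Of the regulators, Srebf2 was at 67.7, 70.6, 78.0 and 69.0 CPM. It had the narrowest range of the 7 over the 4 libraries, and its change was 0.12 (SE 0.30, interval -0.57 to 0.81). Insig1, the sterol-sensing brake, was at 83.2, 113, 119 and 85.7 CPM, a change of 0.11 (SE 0.32, interval -0.64 to 0.86). Its high libraries were young replicate 2 and aged replicate 1, as in the sum of the 7 members, which was 353, 525, 521 and 395 CPM.

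**Figure D1:**
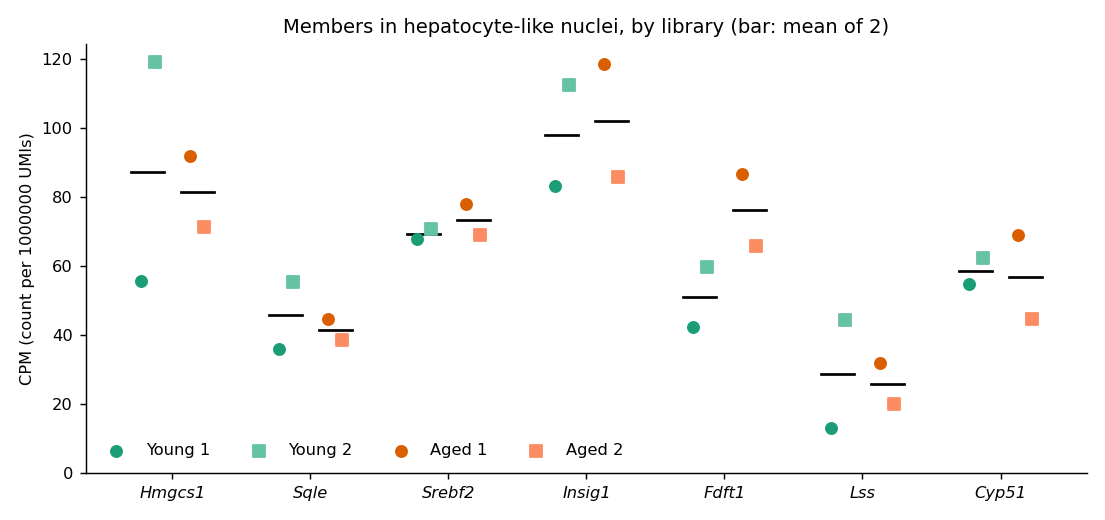
CPM of each gene in hepatocyte-like nuclei, by library, with bars at the mean of 2 libraries per age group. Hmgcs1 spans 55.5 to 119 CPM within the young group, and Fdft1 is the gene whose aged points both lie above the young points.

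Libraries of 1 age also differed. Young replicate 2 exceeded young replicate 1 by 3.45-fold for Lss, 2.14-fold for Hmgcs1, 1.54-fold for Sqle, 1.41-fold for Fdft1, 1.35-fold for Insig1, 1.14-fold for Cyp51 and 1.04-fold for Srebf2. Aged replicate 1 exceeded aged replicate 2 by 1.13-fold (Srebf2) to 1.60-fold (Lss). Genes of feeding and fasting, chosen after their values were seen, also separated the young libraries. Igfbp1, a secreted protein raised by fasting, was at 145, 2.57, 6.22 and 2.53 CPM, and the gluconeogenic G6pc was at 1010, 214, 83.2 and 52.9 CPM. The lipogenic regulator Srebf1 was at 48.8, 251, 41.6 and 65.3 CPM and fatty acid synthase Fasn at 33.9, 171, 35.5 and 29.4 CPM. Young replicate 1 was thus high in the first pair and young replicate 2 in the second, and their part in the members' values was not tested.

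Along the liver zones the set was higher at the periportal end. Hepatocyte-like nuclei of each library were scored by their pericentral landmark genes less their periportal ones and cut into 3 equal parts. Counts of the lowest (periportal) and highest (pericentral) parts were compared with the library as a block (edgeR, landmarks left out). Such parts are stretches of a continuous score, not cell types. All 7 members had lower fitted levels in the pericentral part, and 5 passed the threshold: Sqle, Lss, Cyp51, Insig1 and Hmgcs1. Of all 13784 genes tested 21.8% passed, 10.7% were called lower there and 11.1% higher. The members' median was -0.52 on the log2 scale (pericentral minus periportal), beside -0.01 for all genes tested.

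Sqle had the steepest zone difference. Its periportal levels were 53.6, 63.4, 69.6 and 53.1 CPM and its pericentral levels 18.0, 42.6, 20.8 and 19.4 CPM, so the ranges did not overlap. The periportal excess was 2.97-fold, 1.49-fold, 3.34-fold and 2.74-fold in the 4 libraries. The fitted difference was -1.33 (SE 0.16, interval -1.69 to -0.96, edgeR adjusted p = 0.000229). Over 5 equal parts of the score, from periportal to pericentral, the mean fell from 63.3 ± 10.7 through 55.5, 46.5 and 30.9 to 23.9 ± 11.8 CPM (SD, n = 4), and it fell at every step in 3 of 4 libraries.

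Lss, the next enzyme, was at 18.6, 51.1, 39.5 and 22.5 CPM periportally and 10.7, 35.1, 21.8 and 15.4 CPM pericentrally. It was higher periportally in 4 of 4 libraries, by 1.46-fold to 1.81-fold (-0.66, SE 0.10, edgeR adjusted p = 0.00097). Cyp51 was at 81.1, 68.7, 81.3 and 54.9 CPM periportally and 33.4, 62.6, 55.4 and 31.2 CPM pericentrally. Its excess ran from 1.10-fold in young replicate 2 to 2.43-fold in young replicate 1 (-0.66, SE 0.14, edgeR adjusted p = 0.00716).

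Insig1 was at 109, 128, 139 and 96.8 CPM periportally and 66.4, 107, 90.4 and 70.2 CPM pericentrally, 1.19-fold to 1.64-fold higher in 4 of 4 libraries (-0.51, SE 0.09, edgeR adjusted p = 0.00196). Hmgcs1 was at 76.4, 117, 120 and 76.4 CPM periportally and 39.9, 116, 57.9 and 64.6 CPM pericentrally. Young replicate 2 was flat at 1.01-fold, and the other 3 libraries ran from 1.18-fold to 2.07-fold (-0.52, SE 0.16, edgeR adjusted p = 0.0382). The Hmgcs1 call was lost without young replicate 1 (adjusted p = 0.151) and without aged replicate 1 (adjusted p = 0.184).

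The remaining pair did not pass. Fdft1 was higher periportally in 3 of 4 libraries, by 1.43-fold to 1.57-fold, but in young replicate 2 it was at 49.9 CPM periportally and 73.6 CPM pericentrally. Its fitted difference was -0.29 (SE 0.16, interval -0.66 to 0.07, edgeR adjusted p = 0.262), and without young replicate 2 it was -0.55 (adjusted p = 0.0027). Srebf2 was at 68.9, 66.03, 88.5 and 72.4 CPM periportally and 70.7, 71.6, 70.6 and 63.5 CPM pericentrally. The zones overlapped, and its difference was -0.12 (SE 0.09, interval -0.31 to 0.08, edgeR adjusted p = 0.432).

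**Figure D2:**
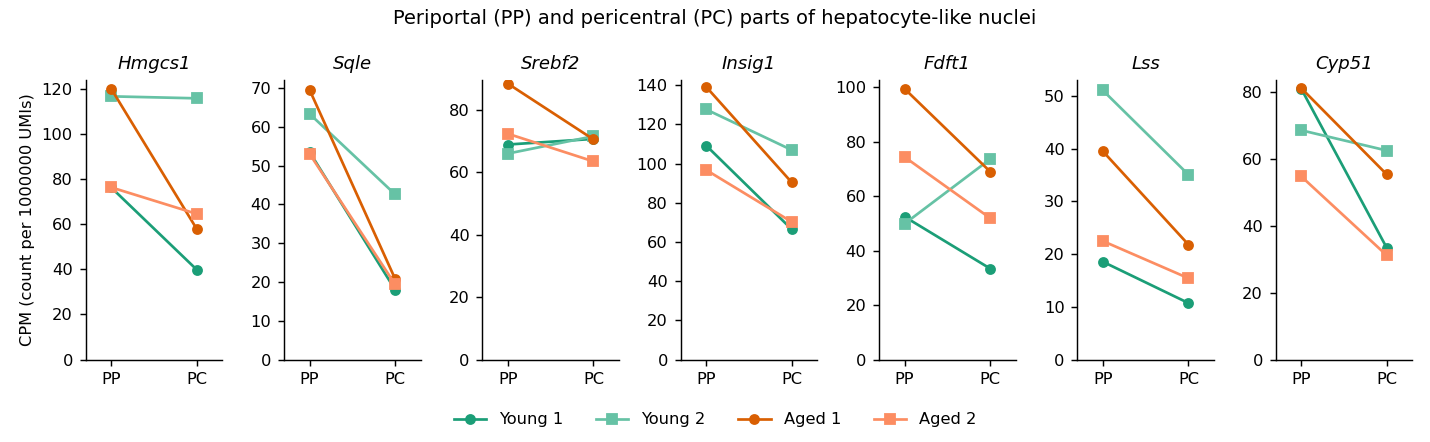
CPM in the periportal (PP) and pericentral (PC) parts of hepatocyte-like nuclei, 1 line per library and 1 panel per gene. The Sqle lines fall in all 4 libraries, from 53.1 to 69.6 CPM down to 18.0 to 42.6 CPM, whereas the Srebf2 lines overlap.

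Summed over the 7 members, the periportal part exceeded the pericentral part by 1.69-fold, 1.07-fold, 1.65-fold and 1.42-fold. Young replicate 2, the shallowest library per nucleus, had the flattest profile. Several measures moved with the zones beside the members. Median mitochondrial UMIs were higher periportally in 4 of 4 libraries (0.371%, 0.680%, 0.727% and 0.388% against 0.222%, 0.499%, 0.599% and 0.305%). The 9 cholangiocyte markers, none at 0, summed to 169, 206, 279 and 228 CPM periportally and 160, 125, 238 and 155 CPM pericentrally. The 9 macrophage markers were at 259, 197, 73.3 and 92.9 CPM periportally and 220, 146, 47.9 and 70.8 CPM pericentrally, and the 9 T/NK markers ran the other way in 4 of 4 libraries. The 10 hepatocyte markers, which are themselves zoned, were also higher periportally in 4 of 4. The part of these in the zone differences was not tested. The median UMI count was higher pericentrally in both young libraries and periportally in both aged ones.

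In 3 libraries a hepatocyte-like cluster had mitochondrially encoded genes among its 10 leading genes (2 of 10 in young replicate 2, where Mup20 and Scd1 came first), with medians of 2.72% to 2.79% mitochondrial UMIs. Hmgcs1 reached 240 CPM in that cluster of young replicate 2, against 78.6 to 116 CPM in the other clusters of that library. Without these clusters, a setting added after the data were seen, Sqle, Lss and Insig1 kept their calls (edgeR adjusted p = 0.00149, 0.00128 and 0.0073), whereas Cyp51 and Hmgcs1 did not pass (adjusted p = 0.0701 and 0.0750, with differences of -0.50 and -0.55).

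**Figure D3:**
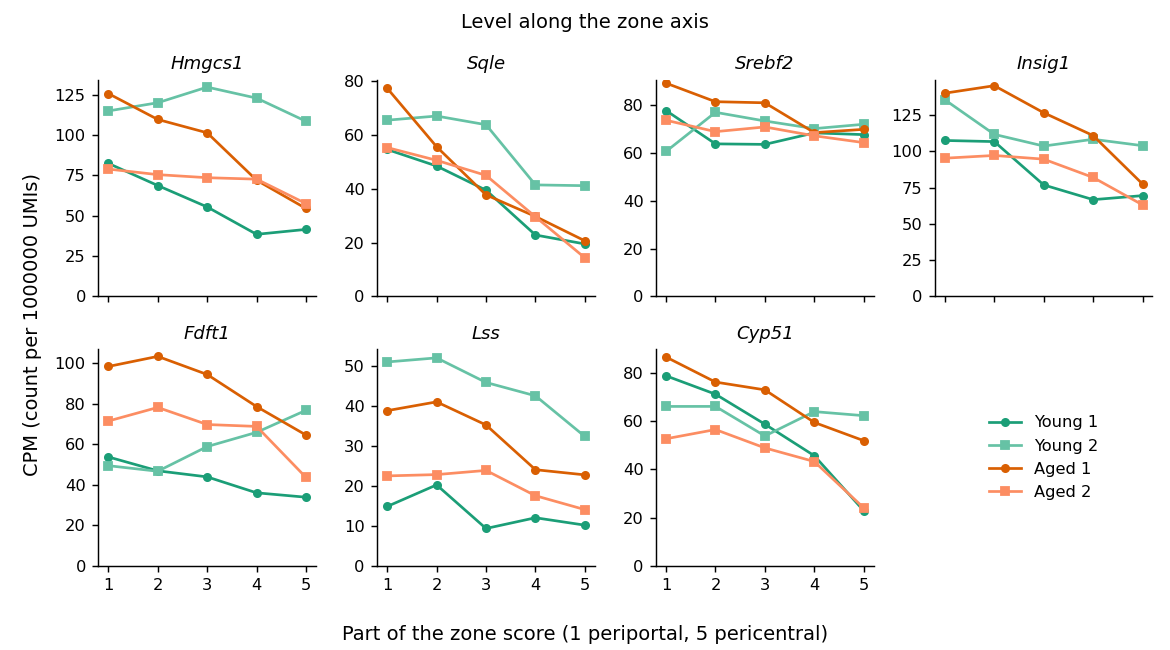
CPM in 5 equal parts of the zone score, from periportal (1) to pericentral (5), 1 line per library. Mean Sqle falls from 63.3 to 23.9 CPM, while in young replicate 2 Fdft1 runs from 49.4 to 76.7 CPM and Srebf2 from 60.7 to 72.1 CPM.

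Whether the zone difference itself changed with age was asked with a zone by age term, aged minus young. The pericentral part began at scores of 0.27, 0.25, -0.02 and -0.02, and 0, 0, 77 and 72 of its nuclei scored exactly 0. It thus covered a different stretch of the score in each age group, whose part in this term was not tested. With edgeR, 0 of 7 members passed, beside 0.0943% of all genes tested. An unadjusted p under 0.05 was reached by 1 of 7, beside 5.81% of all genes tested. DESeq2 called 0 of 7, beside 0.123% of all genes tested. All 7 estimates were below 0, with a median of -0.26 beside 0.01 for all genes tested. Sqle had -0.65 (SE 0.27, interval -1.26 to -0.05, unadjusted p = 0.0377, edgeR adjusted p = 0.83). Fdft1 had -0.60 (SE 0.29, interval -1.25 to 0.04, edgeR adjusted p = 0.871). Without young replicate 2 these were -0.04 and 0.10, and without young replicate 1 Fdft1 passed at -1.11 (adjusted p = 0.0226), so these values rest on which young library is used. The members' median was 0.10 without young replicate 2, with 5 of 7 above 0, and -0.58 without young replicate 1.

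The other genes of the pathway were counted in 5 lists. In age, 0 of 36 passed with edgeR, and 5 had an unadjusted p under 0.05: Hsd17b7, Scarb1, Nr1h3, Abcg1 and Soat1 (Abcg1 was named after its values were seen). That is 13.9% of the lists, beside 18.5% of all genes tested, so the count is not read as a result about the pathway. Scarb1, the receptor for high-density lipoprotein, was at 61.8, 90.1, 111 and 171 CPM (0.94, SE 0.33, edgeR adjusted p = 0.227). Soat1, which esterifies cholesterol, was at 2.86, 3.06, 0.822 and 0.602 CPM, a low level (-2.03, SE 0.60, adjusted p = 0.186). Over all kept nuclei its change was 0.17, the other direction, and macrophage markers in the hepatocyte-like nuclei summed to 242, 172, 66.5 and 80.4 CPM, whose part was not tested. Nr1h3, the sterol receptor LXR-alpha, was at 95.6, 99.6, 55.0 and 55.6 CPM (-0.79, SE 0.29, adjusted p = 0.233). Hsd17b7, a late sterol enzyme, was at 53.1, 46.6, 30.0 and 21.6 CPM (-0.93, SE 0.34, adjusted p = 0.233). Both aged libraries lay below both young ones for 26.7% of all genes tested. The smallest p of the mevalonate list were those of Idi1 (-0.74, adjusted p = 0.299) and Mvk (0.58, adjusted p = 0.533), and of the SREBP list those of Srebf1 (-1.38, adjusted p = 0.298) and Mbtps2 (0.48, adjusted p = 0.466). Tm7sf2 of the late sterol steps had -0.86 (adjusted p = 0.316) and the sterol carrier Stard4 had 0.62 (adjusted p = 0.394).

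Between zones 16 of the 36 listed genes had an unadjusted p under 0.05 with edgeR, 44.4% beside 32.3% of all genes tested. At the adjusted threshold 21.8% of all genes tested passed, 10.7% lower and 11.1% higher pericentrally. The list counts that follow were not tested against these shares. Of the 6 mevalonate genes 6 had lower fitted pericentral levels and 3 passed (Idi1, Mvd and Mvk, the last named after its values were seen), with a list median of -0.57. Idi1, the isopentenyl isomerase, was at 99.1 ± 31.6 CPM periportally and 58.8 ± 25.6 CPM pericentrally (SD, n = 4; -0.82, SE 0.12, edgeR adjusted p = 0.000947). Of the 9 genes after lanosterol 8 had lower pericentral levels and 3 passed (Ebp, Sc5d and Dhcr7), with a median of -0.27. Ebp, a sterol isomerase, fell by 0.50 on the log2 scale (adjusted p = 0.0036), Sc5d, a sterol desaturase, by 0.48 (adjusted p = 0.005). Dhcr7, a late sterol reductase named after its values were seen, was at 31.5 ± 2.68 CPM periportally and 16.6 ± 8.23 CPM pericentrally (-1.02, SE 0.21, adjusted p = 0.00554).

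Of the 7 genes of SREBP processing 5 had lower pericentral levels and 2 passed. These were Srebf1, which encodes the sister factor of Srebf2 (-0.65, SE 0.13, edgeR adjusted p = 0.00388), and Scap, the sterol-sensing escort (-0.39, SE 0.10, adjusted p = 0.0174). In the uptake and transport list 2 of 6 had lower and 4 higher fitted pericentral levels, and 1 of each passed. Stard4, a cytosolic sterol carrier, was at 163 ± 53.4 CPM periportally and 94.2 ± 33.6 CPM pericentrally (-0.81, SE 0.10, adjusted p = 0.000179). Lrp1, an endocytic receptor for lipoprotein remnants, was at 388 ± 60.9 and 480 ± 75.2 CPM (0.30, SE 0.07, adjusted p = 0.0105). Of the 8 genes of efflux, esterification and LXR none had a lower fitted pericentral level, but the list median was near 0, at 0.06. Of these 1 passed, the biliary sterol transporter Abcg8 (0.38, SE 0.08, edgeR adjusted p = 0.00602).

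**Figure D4:**
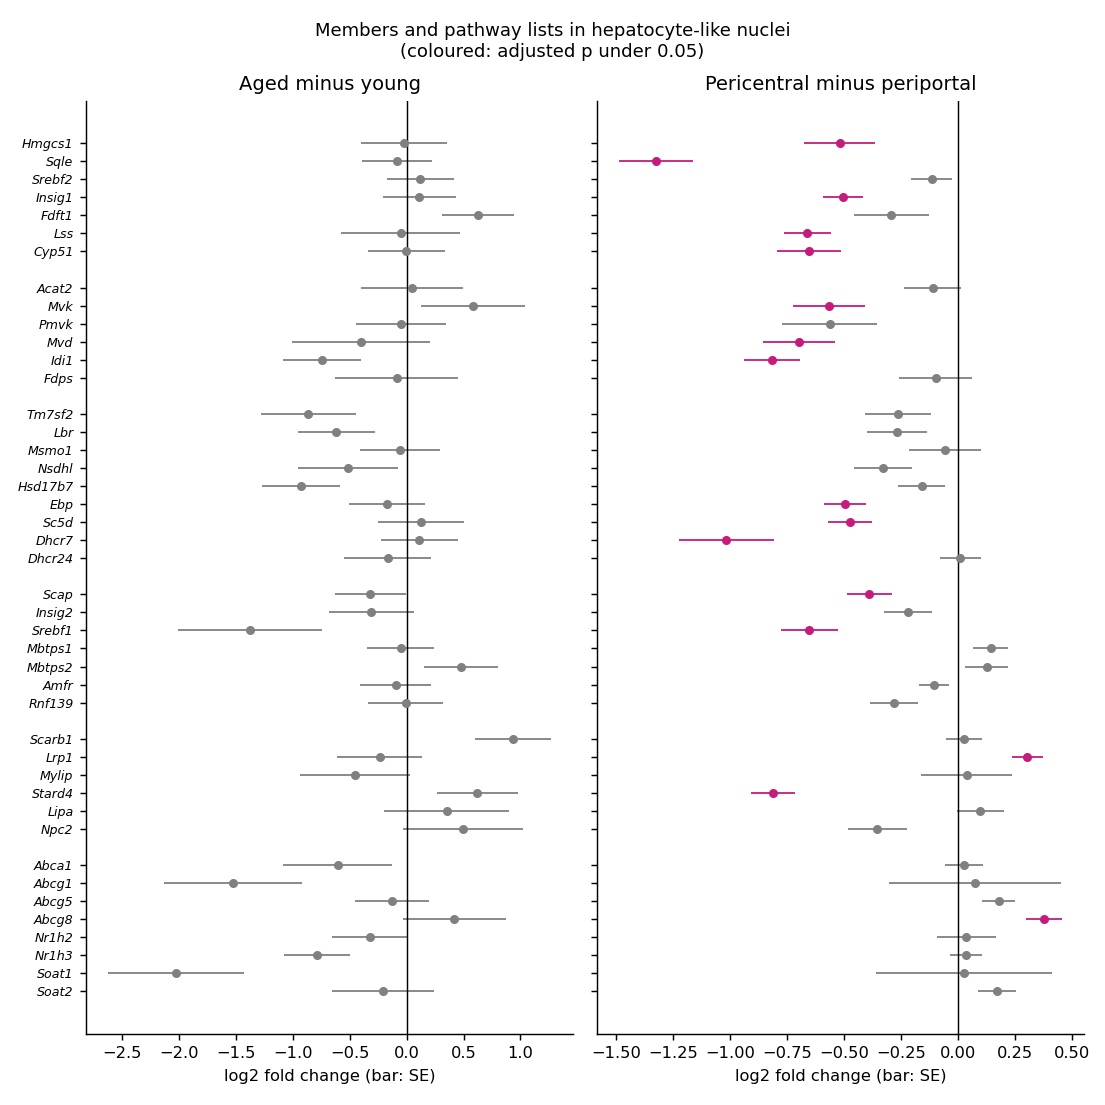
Fitted log2 changes with SE for the 7 genes (top group) and the 5 pathway lists in the order given in the text, between ages (left) and zones (right), coloured where the adjusted p was under 0.05. No age change is coloured, and the zone changes run from -1.33 for Sqle to 0.38 for Abcg8.

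Across 20 profiles (5 equal zone parts in each of 4 libraries, which share libraries and depth) the members' levels were correlated with each other to differing degrees. Pearson's r was 0.90 between Hmgcs1 and Lss, 0.84 between Hmgcs1 and Insig1, 0.82 between Insig1 and Cyp51, and 0.41 between Sqle and Fdft1. The genes whose profile was most like the members' mean profile, of 9006 with a mean of at least 10 CPM, included the sterol enzymes Sc5d (r = 0.94) and Dhcr7 (r = 0.93). The others were Itih4 (0.95), Sdc1 (0.92), Apof (0.92), Acsl3 (0.91), Hpx (0.91), Shroom1 (0.91) and Serpina1b (0.91). Of 32 ranked pathway genes 4 were among the 100 most alike, and their median r was 0.40, beside 0.02 for all genes ranked. Lrp1 (-0.72) and the cholesterol exporter Abca1 (-0.52) ran the other way. These correlations are descriptions over profiles that are not independent.

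In the other lineages the members were read at levels close to those in hepatocyte-like nuclei. Beside them stands the hepatocyte marker RNA (10 genes such as Alb) found in the same nuclei. Summed as a percentage of the hepatocyte-like level of the same library, the 7 members averaged 85.3 ± 12.6% in endothelial-like, 82.9 ± 13.7% in macrophage-like, 83.9 ± 7.32% in T/NK-like and 66.2 ± 25.9% in stellate/fibroblast-like nuclei (SD, n = 4). Hepatocyte marker RNA averaged 80.1%, 78.6%, 76.4% and 62.8% in these classes. The 2 averages lay close together in each class, and for the summed members an own level could not be separated from RNA shared with hepatocytes. By library, T/NK-like nuclei held 74.2%, 83.1%, 91.5% and 86.7% for the members and 81.8%, 78.3%, 72.3% and 73.3% for marker RNA. Srebf2 alone was at 96.6%, 118%, 107% and 122% there, on 3, 14, 26 and 80 counts, and Hmgcs1 at 39.3%, 55.1%, 80.1% and 91.5%. The part of shared RNA in these values was not tested.

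Cholangiocyte-like nuclei, the bile duct lining, stood apart. Their members summed to 166%, 114%, 111% and 129% of the hepatocyte-like level, beside hepatocyte marker RNA of 57.8%, 78.4%, 45.8% and 71.2%. Hmgcs1 was at 222, 133, 141 and 95.8 CPM there and Sqle at 111, 79.8, 93.8 and 47.9 CPM, each above the hepatocyte-like value of the same library. These rest on 8, 25, 9 and 18 counts of Hmgcs1 and 4, 15, 6 and 9 of Sqle, in 11, 212, 34 and 116 nuclei. Median mitochondrial UMIs were 1.66% in this cluster, beside 0.66% in the endothelial-like, 0.70% in the macrophage-like and 0.72% in the T/NK-like cluster, and their part was not tested. In the nuclei of this class that held under 50% of the hepatocyte marker level, Hmgcs1 was at 102, 99.1, 131 and 105 CPM, on 2, 4, 7 and 6 counts. The value of young replicate 2 there was below its hepatocyte-like level of 119 CPM, and those of the other libraries were above theirs. No test was made between classes, which, apart from the B-like class, were built from the other genes of the same nuclei. Of the 9 cholangiocyte markers, Krt19 was at 0 in both young libraries and Pkhd1 at 3335 CPM or more in all 4.

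Ordered by mean level over 6 classes (SD, n = 4), Hmgcs1 ran from 148 ± 53.3 CPM in cholangiocyte-like through 84.5 ± 27.5 in hepatocyte-like, 78.0 ± 18.9 in macrophage-like, 77.4 ± 14.3 in endothelial-like and 56.6 ± 23.5 in T/NK-like to 55.6 ± 11.5 CPM in stellate/fibroblast-like nuclei. Of these steps only the first exceeded the larger SD of its neighbours, as it did for Sqle (83.2 ± 26.8 against 43.7 ± 8.66 CPM in hepatocyte-like nuclei). Srebf2 ran from 60.1 ± 6.49 CPM in stellate/fibroblast-like to 94.1 ± 44.8 CPM in cholangiocyte-like nuclei. Its levels in T/NK-like and hepatocyte-like nuclei lay between, at 79.1 ± 9.14 and 71.3 ± 4.59 CPM. Insig1 and Lss were highest in hepatocyte-like nuclei among these 6 classes, at 100.03 ± 18.2 and 27.3 ± 13.9 CPM. Next were endothelial-like nuclei for Insig1 (90.9 ± 22.3 CPM) and T/NK-like nuclei for Lss (27.1 ± 21.9 CPM). Neither step exceeded the larger SD. The step from endothelial-like (58.4 ± 3.13 CPM) to macrophage-like nuclei (35.1 ± 20.6 CPM) exceeded it for Fdft1. So did the step from hepatocyte-like (57.7 ± 10.6 CPM) to macrophage-like nuclei (43.6 ± 11.5 CPM) for Cyp51. B-like nuclei (6 to 76 a library) are too few for an order.

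**Figure D5:**
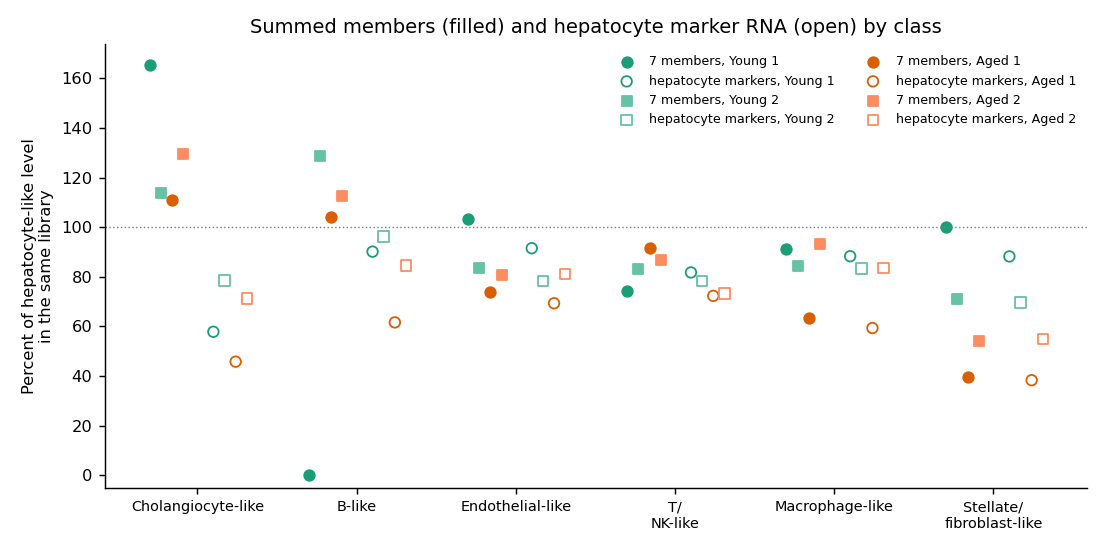
The 7 genes summed (filled) and hepatocyte marker RNA (open), as a percentage of the hepatocyte-like level of the same library, by class and library. Filled and open points lie furthest apart in cholangiocyte-like nuclei, where the filled points lie at 111% to 166%, and in the few B-like nuclei. In T/NK-like nuclei of aged replicate 1 they lie at 91.5% and 72.3%.

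With age, 1 member was called outside hepatocytes. Insig1 fell in stellate/fibroblast-like nuclei, from 78.9 and 85.2 CPM in young to 30.6 and 32.0 CPM in aged libraries. The change was -1.31 (SE 0.33, edgeR adjusted p = 0.0337). Of 11813 genes tested in this class 16.6% were called, and 6.76% were called lower. With edgeR, an unadjusted p under 0.05 was reached by 2 of 7 members there, beside 33.4% of all genes tested. These counts are thus not read as a result about the members. All 7 members had fitted changes below 0 there, with a median of -0.86 beside -0.03 for all genes tested. The members' sum was 99.96%, 71.2%, 39.6% and 54.1% of the hepatocyte-like level and hepatocyte marker RNA was 88.2%, 69.7%, 38.3% and 55.0%, so the 2 moved together. The class holds 2 clusters, one of 253, 1394, 7 and 71 nuclei and the other of 111, 112, 312 and 1154, so young and aged nuclei came mostly from different clusters. The stellate marker Reln ran the other way, at 727, 1001, 5089 and 5352 CPM. The Insig1 call was lost without nuclei high in hepatocyte RNA (-1.24, adjusted p = 0.254), with the replicate number as a block (adjusted p = 0.081), and without either aged library (adjusted p = 0.129 and 0.142). In endothelial-like and macrophage-like nuclei 0 of 7 members passed with edgeR, and 0.00938% and 0.0% of all genes tested were called. An unadjusted p under 0.05 was reached by 0 of 7 members in either class, beside 13.1% and 14.3% of all genes tested. DESeq2 was not run in these classes.

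The share of hepatocyte-like nuclei with at least 1 UMI of any of the 7 genes, after each nucleus was thinned to 500 UMIs, was 17.0%, 23.4%, 23.9% and 17.9%. In T/NK-like nuclei (median 1671, 1119.5, 1153.5 and 1077 UMIs before thinning) it was 11.8%, 21.6%, 23.4% and 17.8%. The exact 95% binomial interval of the first, from 17 nuclei, was 1.46% to 36.4% and covers counting error only. At 1000 UMIs the shares were 30.5%, 37.6%, 40.4% and 31.9% in hepatocyte-like and 27.3%, 26.9%, 24.5% and 22.8% in T/NK-like nuclei. The shallower nuclei left out there numbered 68, 5069, 1555 and 1127 of the first class and 6, 49, 45 and 139 of the second. The hepatocyte-like share was the higher one in 4 of 4 libraries at either depth, and the young replicate 1 value at 1000 UMIs rests on 11 T/NK-like nuclei. No test was made of this difference, and which part of either share comes from free RNA was not tested. The age difference was 0.677 percentage points (exact two-sided permutation p = 0.667, smallest possible 0.333). Unthinned, the shares were 63.7%, 41.4%, 63.1% and 63.1%, with the lowest in the library of lowest depth.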

How the data were processed

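UMI counts per gene and barcode were deposited for 4 libraries, made with Cell Ranger 7.1.0 on mm10 per the submitters' processing notes. Members and lists were chosen with earlier results of these data known. Barcodes with at least 500 UMIs, 300 genes and at most 5% mitochondrial UMIs were kept. Scrublet's threshold marked 0 doublets, so the top-scoring 0.8% per 1000 barcodes were removed (3927). Nuclei were clustered (scanpy 1.11.5, 2000 variable genes, 30 components, 20 neighbours, Leiden resolution 1 in igraph 0.11.9). Clusters were named from at least 3 markers by a rule set after the data were seen, with 1257 nuclei unnamed, so names may differ from the study's own.

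Counts were summed per library and class or zone part and tested with edgeR 4.0.16 (TMM, filterByExpr, Benjamini-Hochberg threshold 0.05). The age and zone fits were tested on simulated data with a fixed spread, which does not show how they perform on these libraries. Named were the members, per list the genes with the smallest p, and the 10 genes most alike in profile, of which 1 is not reported here. Same-numbered libraries did not deviate together (r = -0.22). Intervals cover 95%.  Alternatives are given below.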

Additional observations from a re-analysis of the deposited data

Results flagged for a closer look

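In 3 genes both young libraries went one way along the zones and both aged libraries the other. The pericentral part began at a lower score in the aged libraries, as given above, and its part in these splits was not tested. Srebf2 was 0.975-fold and 0.922-fold as high periportally as pericentrally in the young libraries and 1.25-fold and 1.14-fold in the aged ones. The zone by age term, which tests this, was -0.33 (SE 0.15, interval -0.67 to 0.01, unadjusted p = 0.055, edgeR adjusted p = 0.868), so it did not pass.

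Fdps, which makes the farnesyl units used by Fdft1, was at 44.5 and 151 CPM periportally against 50.2 and 211 CPM pericentrally in the young libraries, and at 134 and 93.9 against 81.2 and 82.1 CPM in the aged ones. Its zone by age term was -0.82 (SE 0.20, edgeR adjusted p = 0.392). Lipa, the lysosomal acid lipase, was at 13.8 and 58.4 against 17.6 and 77.4 CPM in the young libraries and at 62.1 and 37.7 against 57.9 and 37.0 CPM in the aged ones (-0.45, SE 0.17, edgeR adjusted p = 0.769). None of these passed over all genes tested. Of the 43 member and pathway genes these 3 are 6.98%, beside 7.85% of all 13784 genes tested that split between the ages in either direction.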

How the results depend on the processing

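The number of genes called between ages in hepatocyte-like nuclei was 6, and it became 1482 without the filter on low counts, 811 with DESeq2, 71 with the replicate block and 2 with at most 1% mitochondrial UMIs, with equal numbers of nuclei or without the clusters with mitochondrial genes among their leading 10. It was 103 to 1128 with 1 library left out. No member was called in any of these 15 settings. Sign changes of uncalled members were not counted as reversals. Their log2 changes ran from -0.37 to 0.49 for Hmgcs1, from 0.40 to 0.87 for Fdft1 and from -0.61 to 0.94 for Lss. Deviations of same-numbered libraries from their group means correlated at -0.22. With 2 libraries a group, the crossed value must be the same with the opposite sign, so it is no separate observation. A crossed block, added after the data were seen, called 8 genes and 0 members.

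The zone difference called 3004 genes, and 1967 to 2582 with 1 library left out. Of the members 5 were called, 3 without the clusters with mitochondrial genes among their leading 10 and 4 to 6 with 1 library left out, and no member changed sign over the 12 settings. The zone by age term called 13 genes, 186 without the filter, 23 with doublets kept, 1 with at least 1000 UMIs, 22 with 2 equal zone parts, 3 with the ends of 5 parts, 5 without the clusters with mitochondrial genes among their leading 10, 41 with the replicate block and 7 to 237 with 1 library left out, with 0 to 1 members.

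In stellate/fibroblast-like nuclei 1961 genes were called, 0 without nuclei high in hepatocyte RNA and 1314 to 2697 with 1 library left out. There 1 member was called, 0 with the replicate block or without those nuclei, and 0 to 2 with 1 library left out. In endothelial-like nuclei the count was 1, 0 with the replicate block, 0 without those nuclei, and 0 to 410 with 1 library left out. In macrophage-like nuclei it was 0 (1167 genes at an unadjusted p under 0.05), 25 with the replicate block and 9 to 410 with 1 library left out. With an arm of 1 library, that library is assumed to vary like the others. The cause of these shifts was not tested. The small counts outside hepatocytes and the 2 libraries a group limit what could be detected.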
